A study of Mus musculus with 6 samples.

Results

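The genes described here encode, in the nucleus, the protein subunits of the 5 complexes of oxidative phosphorylation, and their RNA was measured in whole mouse retina at postnatal day 17. A gene was taken when its symbol started with Ndufa, Ndufb, Ndufc, Ndufs, Ndufv, Uqcr or Atp5, or with Cox and a digit from 4 to 8, or was Sdha, Sdhb, Sdhc or Sdhd. Assembly factors named Ndufaf were left out, as were Ndufa4, Ndufa4l2, Cox4i1 and Cox4i2. This gave 86 of the 22173 genes in the files, with 41 in complex I, 4 in complex II, 8 in complex III, 16 in complex IV and 17 in complex V. Ndufab1-ps, Ndufb4b, Ndufb4c and Ndufs6b are copies of other members, and Cox7a2l encodes a factor of supercomplex assembly that resembles a complex IV subunit. How shared reads were counted is not given in the sources used here, so the values of these copies and of the genes they resemble are uncertain.

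The OIR group held 3 libraries of wild-type C57BL/6 pups with oxygen-induced retinopathy, which breathed 75% oxygen between days 7 and 12 after birth and then room air until day 17. The Control group held 3 libraries of wild-type C57BL/6J pups that stayed in room air over the same days. In this model high oxygen stops and reverses vessel growth in the retina, and on return to room air the poorly perfused tissue becomes hypoxic and grows abnormal vessels. The series asks which genes change with this vessel growth. Whether each library is a separate animal is not stated in the labels. The p-values therefore measure the spread between these libraries, which may in part be technical.

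Oxidative phosphorylation takes place at the inner mitochondrial membrane. Complexes I and II pass electrons from NADH and succinate to ubiquinone, complex III passes them on to cytochrome c, and complex IV hands them to oxygen. Complexes I, III and IV pump protons, and complex V, the ATP synthase, uses the proton gradient to make ATP. Photoreceptors pack mitochondria into their inner segments, and the retina is known as a tissue of very high oxygen use.

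The libraries held 35615501 to 38025623 reads, recovered from the steps between low values, and the deepest exceeded the shallowest 1.07-fold. All 15 genes of a rod photoreceptor list were tested and summed to 16659 to 20634 RPKM over the 6 libraries, which fits the label of retina. Genes of the eye lens stood apart in a pair of libraries. They took 0.0552%, 0.599% and 0.0257% of the reads in OIR 1, OIR 2 and OIR 3, against 0.0274%, 0.072% and 6.9% in Control 1, Control 2 and Control 3. Because values are scaled to all reads, a large lens share lowers every other gene of that library, and results are therefore also given without OIR 2 and Control 3, or after median-of-ratios scaling.

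The members were among the more abundant RNAs of the retina. RPKM divides a gene's reads by its length and by the reads of the library, so levels can be set beside each other across genes. Over the 6 libraries 34 members averaged at least 100 RPKM, 42 lay between 10 and 100 RPKM, and 10 lay under 10 RPKM. The 82 members with at least 1 RPKM in at least 3 libraries were tested, and their median level was 80.0 RPKM, beside 9.42 RPKM for all 12112 genes tested. Atp5b, which encodes the catalytic beta subunit of ATP synthase, had the highest level of all members, with 653, 698 and 675 RPKM in OIR and 705, 713 and 712 RPKM in Control. Between 9 and 49711 reads lay behind each value of a tested member, and 72 members had at least 1000 reads in every library. The 4 members that were not tested were Ndufb4c, Cox6a2, Cox7b2 and Cox8c, of which Cox7b2 and Cox8c were listed at 0 in all 6 libraries.

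In OIR, 2 of the 82 tested members were lower than in Control and 0 were higher at an adjusted p under 0.05. These were Cox8a of complex IV and Ndufb5 of complex I, which is 2.44% of the members. Over all genes tested, 7.22% were lower and 11.6% higher, 18.8% in either direction. Among the 719 genes whose level lay between the quartiles of the members' levels, 10.6% were lower and 20.0% were called in either direction. The share of the members lies below both of these backgrounds, while most of their estimates lay on the lower side. The limma-voom test on recovered reads called Cox8a alone. The log2 fold change, OIR over Control, was below 0 for 64 of the 82 members, beside 44.7% of all genes. Its median was -0.07 over the members and 0.03 over all genes, and it ran from -0.53 for Cox8b to 0.20 for Cox7a1. At an unadjusted p under 0.05, 14 of the 82 members were lower and 0 higher, and of all 12112 genes 1698 were lower, or 14.0%, and 2424 higher, or 20.0%.

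The 3 OIR values of 20 of the 82 members all lay below the 3 Control values, and for 1 member, Ndufv1, they all lay above. Over all genes tested the share was 15.0% for all lower and 23.6% for all higher. In either direction the groups did not overlap for 25.6% of the members and 38.7% of all genes. The members' median standard error of the log2 fold change was 0.069, beside their median log2 fold change of -0.07. The 95% interval of the fold change lay within 1.5-fold either way for 79 of the 82 members, beside 86.5% of all genes. With the values scaled by median-of-ratios, 8 members were lower and 0 higher, which is 9.76% of the members, and the shares of all genes were 10.8% lower and 10.6% higher. Over all genes that scaling gave 1283 higher and 1312 lower, and the values as deposited gave 1407 higher and 875 lower. Without OIR 2 and Control 3, 10 members were lower and 0 higher, 12.2% of the members, beside 16.0% of all genes lower and 17.3% higher. The median of the members stayed below 0 in these settings, at -0.11 and -0.06.

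Whole retina was sequenced, so fewer cells of a type and less RNA per cell cannot be told apart. In the same libraries, 8 of 10 amacrine cell markers and 3 of 9 ganglion cell markers were lower in OIR, and 3 of 15 rod markers were higher. Over all genes tested 7.22% were lower and 11.6% higher. The part of these cell types in the values of the members was not tested.

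**Figure D1:**
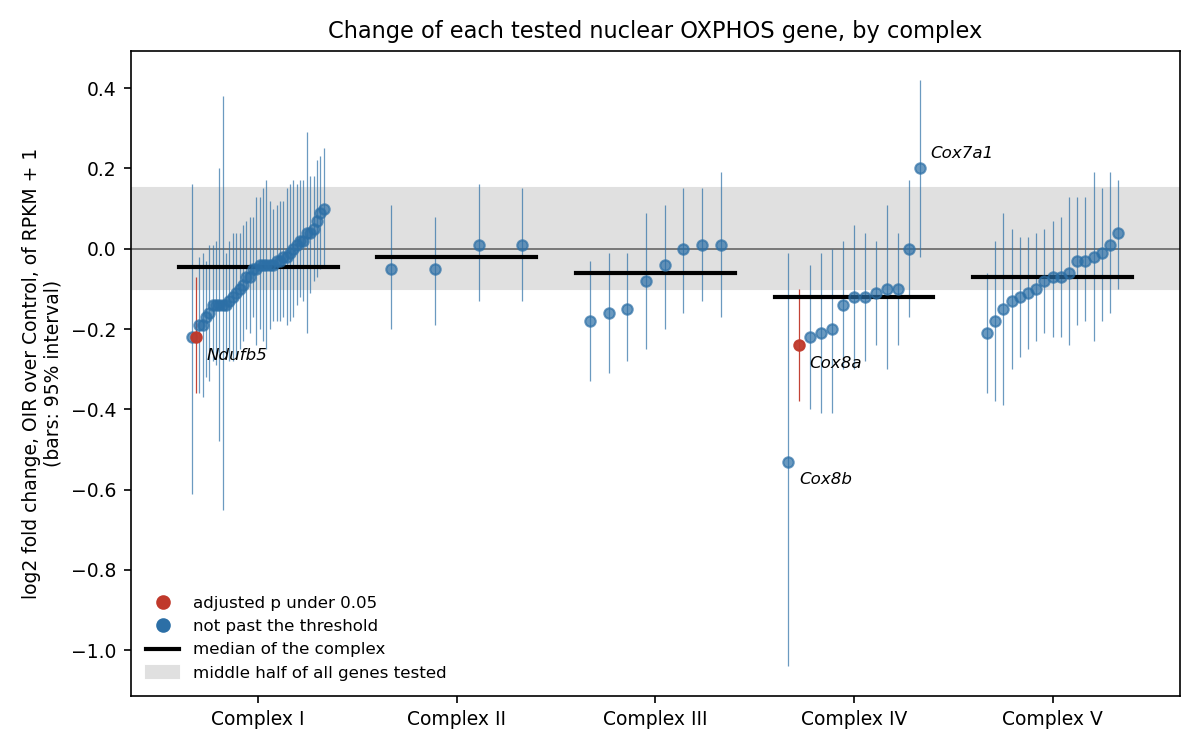
The log2 fold change, OIR over Control, of each of the 82 tested members on the log2(RPKM + 1) scale, by complex, with its 95% interval as a bar and members past the threshold in red. The black lines are the medians of the complexes, from -0.12 in complex IV to -0.02 in complex II, and the grey band spans the quartiles of all genes tested, from -0.1 to 0.15.

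Cox8a was the member with the smallest adjusted p. It encodes the widely expressed form of subunit VIII, a small protein that spans the membrane within complex IV. Its level was 245, 239.5 and 234 RPKM in OIR 1, 2 and 3, against 278, 288 and 285 RPKM in Control 1, 2 and 3. The OIR values were close together and all lay below the Control values. The means were 239.8 ± 5.53 RPKM in OIR and 284 ± 5.13 RPKM in Control (SD, n = 3 each), a difference of -15.5%, with a log2 fold change of -0.24 ± 0.063 (SE) and an adjusted p of 0.0246 in limma. The log2 fold change lay between -0.29 and -0.23 over 17 settings, and Cox8a passed the threshold in 11 of them. The call was lost when Control 1, Control 2, OIR 1 or OIR 3 was left out, at adjusted p of 0.0762, 0.0771, 0.0838 and 0.117, each with 5 libraries in the fit. It was also lost without the filter on low values, at 0.0573, and with the replicate number added to the fit.

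Ndufb5 encodes an accessory subunit of the membrane arm of complex I. It was at 47.2, 50.2 and 44.2 RPKM in OIR 1, 2 and 3, against 53.7, 55.5 and 55.7 RPKM in Control 1, 2 and 3. The groups did not overlap, and OIR 2 came nearest to Control. The means were 47.2 ± 3.00 RPKM in OIR and 54.9 ± 1.12 RPKM in Control (SD, n = 3 each), with a log2 fold change of -0.22 ± 0.0656 (SE) and an adjusted p of 0.0425. Its call was lost when any library but OIR 2 was left out. The adjusted p was then 0.132 without OIR 1, 0.199 without OIR 3, 0.0963 without Control 1, 0.109 without Control 2 and 0.0590 without Control 3. With no filter it was 0.138, and with limma-voom 0.0510. The call was also lost with the replicate number added to the fit.

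Next in order came Atp5pb, the gene of subunit b in the peripheral stalk of ATP synthase. Its levels were 123.5, 133 and 130.3 RPKM in OIR and 157, 147 and 144 RPKM in Control, with no overlap. The log2 fold change was -0.21 and the adjusted p was 0.0512, which just missed the threshold. Over 17 settings Atp5pb passed in 7, with adjusted p from 0.00651 to 0.209. Its adjusted p was 0.00943 when OIR 2 and Control 3 were both left out and 0.0247 after median-of-ratios scaling. It did not pass with limma-voom, at 0.0565, or without Control 1, Control 2, OIR 1 or OIR 3, at 0.194, 0.0994, 0.209 and 0.145.

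**Figure D2:**
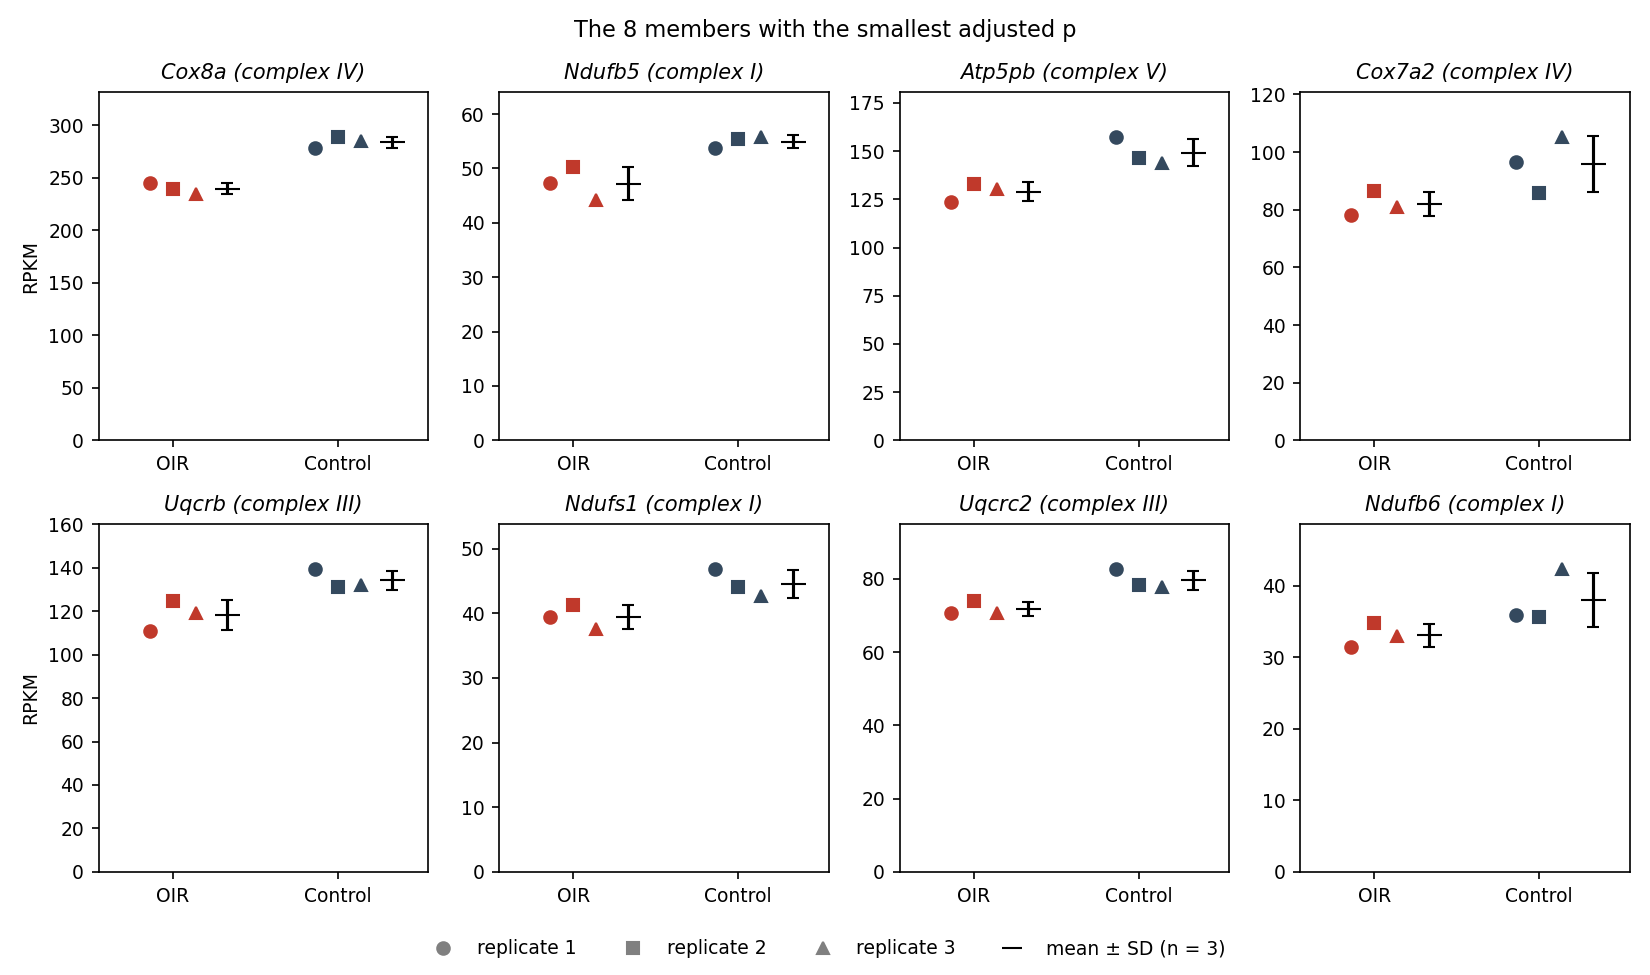
RPKM in each library for the 8 members with the smallest adjusted p, OIR in red on the left and Control in dark blue on the right, with the mean ± SD (n = 3 each) beside the points and the axes starting at 0. The groups do not overlap in 7 of the 8 panels, and Cox7a2 is the exception, with 86.4 RPKM in OIR 2 and 85.8 RPKM in Control 2. These 8 were picked by adjusted p from the same values, which favours groups without overlap. Of all 82 tested members, 20 had OIR values all below Control, beside 15.0% of all genes tested.

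The promoters of Cox8a and Ndufb5 are shown because these members passed the test, and that of Atp5g3 because it had the highest level of the members with a match to the core of nuclear respiratory factor 1 (NRF-1), a known activator of respiratory genes. Sequences are from RefSeq on GRCm38.p6 and run 5′ to 3′ from 250 bases before to 50 bases after the gene start, on the strand of the gene. Capitals mark matches on either strand to the cores searched.
Cox8a (chr19:7217567-7217866, minus strand): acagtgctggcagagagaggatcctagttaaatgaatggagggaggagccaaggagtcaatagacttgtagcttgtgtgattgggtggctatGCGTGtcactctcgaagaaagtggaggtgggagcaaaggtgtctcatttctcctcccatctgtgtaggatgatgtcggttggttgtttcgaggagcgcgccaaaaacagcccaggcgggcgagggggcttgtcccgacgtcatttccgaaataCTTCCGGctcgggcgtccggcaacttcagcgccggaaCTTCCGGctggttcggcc
Ndufb5 (chr3:32736813-32737112, plus strand): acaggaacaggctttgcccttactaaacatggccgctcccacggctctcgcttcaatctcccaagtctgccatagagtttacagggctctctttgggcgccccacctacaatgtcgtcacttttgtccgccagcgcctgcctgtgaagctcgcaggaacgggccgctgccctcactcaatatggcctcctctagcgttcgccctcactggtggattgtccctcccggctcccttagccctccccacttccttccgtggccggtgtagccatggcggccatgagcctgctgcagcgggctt
Atp5g3 (chr2:73911277-73911576, minus strand): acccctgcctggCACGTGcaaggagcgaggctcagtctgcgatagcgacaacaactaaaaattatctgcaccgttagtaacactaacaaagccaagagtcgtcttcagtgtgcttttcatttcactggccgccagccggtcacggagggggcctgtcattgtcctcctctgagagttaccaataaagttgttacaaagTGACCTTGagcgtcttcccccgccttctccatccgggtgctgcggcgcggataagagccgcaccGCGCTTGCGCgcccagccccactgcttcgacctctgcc
The cores were GCGCA and GCGC with any base between them for NRF-1, CCGGAAG for ETS factors, AAGATGG for YY1, TGACCTTG for estrogen-related receptors and ACGTG or GCGTG for the hypoxia response element. The Cox8a window holds 2 ETS cores, both read on the opposite strand, and 1 hypoxia core. None of these letters occurs in the Ndufb5 window. The Atp5g3 window holds 1 NRF-1 core, read on the opposite strand, 1 core of estrogen-related receptors and 2 hypoxia cores, which are both strands of the same CACGTG.

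Of the tested members 69 had a promoter in the table, as had 9692 of all tested genes. The NRF-1 core was in 24.6% of the members' promoters and in 11.8% of those of all tested genes. The core of estrogen-related receptors was in 5.80% of the members' promoters, 4 in number, and in 1.35% of all. For YY1 the shares were 15.9% and 8.41%, and for ETS they were 24.6% and 19.8%. The hypoxia core was in 63.8% of the members' promoters and in 68.2% of all. A match is a run of letters and not a measured site.

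Complex I takes electrons from NADH at the tip of a peripheral arm and pumps protons in a membrane arm. Of its 41 genes 40 were tested, and 1 was lower, Ndufb5, and 0 higher. The median log2 fold change was -0.04, and 30 of the 40 values were below 0. In 9 of the 40 all OIR values lay below the Control values and in 1 above, beside 15.0% and 23.6% of all genes tested. The levels of the tested members ran from 3.27 RPKM for Ndufab1-ps to 162 RPKM for Ndufb10 over the 6 libraries.

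The 7 core subunits carry the flavin, the iron-sulfur clusters and the ubiquinone site, and they lay on both sides of 0. Ndufv1, which binds NADH and the flavin, was at 84.7, 94.8 and 86.5 RPKM in OIR, against 82.0, 83.3 and 84.1 RPKM in Control. All OIR values were above the Control values, by a log2 fold change of 0.09 with an adjusted p of 0.359. Ndufs1, the largest iron-sulfur subunit, was at 39.4, 41.2 and 37.6 RPKM in OIR and at 46.8, 44.0 and 42.7 RPKM in Control. Here all OIR values were below the Control values, with a log2 fold change of -0.17 and an adjusted p of 0.0915. Ndufv2, an iron-sulfur partner of Ndufv1, was at 49.3, 50.2 and 49.7 RPKM in OIR, against 57.5, 52.9 and 54.4 RPKM in Control, again with no overlap and with an adjusted p of 0.133. Ndufs3, Ndufs7 and Ndufs8, which line the path of electrons towards ubiquinone, had overlapping groups and log2 fold changes of -0.04, -0.02 and 0.05. With median-of-ratios scaling Ndufs1 and Ndufv2 passed the threshold as lower, at adjusted p of 0.0345 and 0.0493.

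Among the accessory subunits of complex I, the 20 of the membrane arm had a median log2 fold change of -0.05. In 6 of them the OIR values all lay below Control, beside 15.0% of all genes. Ndufb6, one of these 6, was at 31.5, 34.8 and 32.9 RPKM in OIR, against 36.0, 35.6 and 42.4 RPKM in Control, with an adjusted p of 0.113. Ndufa1, a small membrane subunit, was at 81.9, 91.3 and 85.6 RPKM in OIR and at 86.7, 89.0 and 133 RPKM in Control. Its high mean in Control rested on Control 3, the library with the largest lens share, and its log2 fold change of -0.22 had a standard error of 0.161. The 7 accessory subunits of the NADH-binding module had a median of -0.01. Ndufv3, which had the highest estimate of these, was at 81.1, 78.9 and 84.5 RPKM in OIR and 71.9, 80.0 and 76.2 RPKM in Control, with a log2 fold change of 0.10 and an adjusted p of 0.311. Ndufab1, the mitochondrial acyl carrier protein, was at 13.4, 15.2 and 13.5 RPKM in OIR, against 15.6, 15.0 and 17.7 RPKM in Control, at an adjusted p of 0.130. Of the tested copies, Ndufs6b was at 2.94 RPKM in OIR 3, against 5.94 and 5.42 RPKM in the other OIR libraries and 4.86 to 5.61 RPKM in Control.

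Complex II, succinate dehydrogenase, is also an enzyme of the tricarboxylic acid cycle and has no subunit from the mitochondrial genome. None of its 4 genes passed the test, 0 had an unadjusted p under 0.05, and all 4 had overlapping groups. Sdha, the flavoprotein, averaged 144 ± 1.78 RPKM in OIR and 149 ± 10.7 RPKM in Control (SD, n = 3 each), with a 95% interval of the log2 fold change from -0.20 to 0.11. Sdhb, the iron-sulfur subunit, averaged 59.0 ± 2.20 RPKM in OIR and 58.5 ± 3.39 RPKM in Control, with an interval from -0.13 to 0.16. The membrane anchors gave 79.7 ± 1.75 RPKM in OIR and 82.7 ± 3.04 RPKM in Control for Sdhc, and 46.3 ± 1.67 RPKM in OIR and 45.9 ± 1.72 RPKM in Control for Sdhd. Their intervals ran from -0.19 to 0.08 and from -0.13 to 0.15. The estimates of Sdhb and Sdhd, both 0.01, were -0.02 and -0.03 with median-of-ratios scaling.

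Complex III had 8 tested genes, of which 0 passed the test, 3 were lower at an unadjusted p under 0.05 and 2 had OIR values all below Control. Over all genes tested, 14.0% were lower at an unadjusted p under 0.05 and 15.0% had OIR values all below Control. Uqcrb, a subunit that helps bind ubiquinone, was at 111, 124 and 119 RPKM in OIR, against 139, 131 and 132 RPKM in Control. Its log2 fold change was -0.18 and its adjusted p was 0.0857. Uqcrc2, a core protein on the matrix side, was at 70.6, 73.9 and 70.7 RPKM in OIR, against 82.6, 78.4 and 77.8 RPKM in Control, with a log2 fold change of -0.15 and an adjusted p of 0.113. Its partner Uqcrc1 showed no such gap, with 148, 154 and 155 RPKM in OIR and 155, 149 and 149.98 RPKM in Control. Uqcrfs1, the Rieske iron-sulfur protein, was at 48.7, 52.5 and 48.1 RPKM in OIR, against 58.9, 56.3 and 52.2 RPKM in Control. OIR 2 and Control 3 overlapped there, and the log2 fold change of -0.16 had an adjusted p of 0.124. Uqcrb, Uqcrc2 and Uqcrfs1 were all called lower with median-of-ratios scaling, at adjusted p of 0.0442, 0.0413 and 0.0422. Uqcrh, the hinge protein and the most abundant member of the complex, averaged 237 ± 8.51 RPKM in OIR and 251 ± 21.4 RPKM in Control. The other 3 genes, Uqcr10, Uqcr11 and Uqcrq, had adjusted p of at least 0.723.

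Complex IV had the lowest median log2 fold change of the 5 complexes, -0.12, with 11 of its 13 tested genes below 0. Cox8a was called lower and 0 genes were called higher. In 3 genes, Cox8a, Cox6a1 and Cox7a2l, the OIR values all lay below Control, beside 15.0% of all genes. Cox7a2, the widely expressed form of subunit VIIa, was at 78.3, 86.4 and 81.1 RPKM in OIR, against 96.6, 85.8 and 105 RPKM in Control, with a log2 fold change of -0.22 and an adjusted p of 0.0819. Cox7b, another small membrane subunit, was at 62.0, 78.8 and 72.5 RPKM in OIR and at 81.9, 76.3 and 87.5 RPKM in Control, with an adjusted p of 0.136. Cox6a1 was at 188, 189 and 196 RPKM in OIR, below its 199, 204 and 212 RPKM in Control, with an adjusted p of 0.297. Cox7a2l was at 98.1, 101 and 102 RPKM in OIR, against 107, 109 and 108 RPKM in Control, with an adjusted p of 0.231. Cox6b1, the most abundant of the members in complex IV, averaged 270.1 ± 20.4 RPKM in OIR and 294 ± 4.19 RPKM in Control. Cox4i1, which the rule leaves out, was more abundant, with means of 492 RPKM in OIR and 516 RPKM in Control. Cox5b differed least, with 201 ± 13.2 RPKM in OIR and 201 ± 13.9 RPKM in Control (SD, n = 3 each).

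Several subunits of complex IV exist as a widespread form and a form of muscle or testis, and the retina held mostly the widespread one. Cox8b, the muscle form of subunit VIII, was at 0.671, 1.28 and 1.01 RPKM in OIR and at 1.04, 2.30 and 2.40 RPKM in Control. With 9 to 31 reads per library its log2 fold change was -0.53 ± 0.217 (SE), at an adjusted p of 0.139. Cox7a1, the muscle form of subunit VIIa, had an estimate above 0, with 2.88, 3.15 and 3.09 RPKM in OIR, 2.92, 2.58 and 2.08 RPKM in Control and an adjusted p of 0.178. Cox6a2, the muscle form of subunit VIa, was at 0.985, 0.332 and 1.16 RPKM in OIR and at 0.0408, 0.368 and 0.170 RPKM in Control, from 1 to 29 reads. Its groups overlapped and it was too low to be tested. Cox6b2, the testis form of subunit VIb, was at 8.26, 7.80 and 8.33 RPKM in OIR and at 10.6, 8.19 and 9.92 RPKM in Control, with an adjusted p of 0.141. Of a skeletal muscle list of 10 genes 3 were tested, of which Pvalb and Acta1 were lower and Mylpf was higher in OIR. The 7 genes that were not tested reached at most 0.437 RPKM, for Ckm in Control 3. The summed level of the muscle list was 13.6 to 15.5 RPKM in OIR and 16.9 to 18.5 RPKM in Control. Pvalb was its largest part, with 6.46 to 8.98 RPKM in OIR and 10.9 to 11.5 RPKM in Control. The part of muscle tissue in the muscle forms was not tested.

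Complex V makes ATP in a catalytic head, F1, turned by a ring of c subunits in the membrane and held by a peripheral stalk. None of its 17 genes passed the test, 1 was lower at an unadjusted p under 0.05, 15 estimates were below 0 and 6 genes had OIR values all below Control. Over all genes tested, 14.0% were lower at that level, 44.7% had estimates below 0 and 15.0% had OIR values all below Control. The 5 subunits of F1 all had estimates below 0, from -0.15 for Atp5e to -0.07 for Atp5a1 and Atp5b. Atp5a1, the alpha subunit, averaged 327 ± 11.2 RPKM in OIR and 342.5 ± 13.6 RPKM in Control, and Atp5b averaged 675 ± 22.7 RPKM in OIR and 710.3 ± 4.39 RPKM in Control (SD, n = 3 each). Atp5c1, the gamma subunit, was at 109.8, 118 and 111 RPKM in OIR, against 118, 122 and 121 RPKM in Control. Atp5d, the delta subunit, was at 79.6, 78.3 and 75.8 RPKM in OIR, against 81.8, 82.9 and 82.1 RPKM in Control. The groups did not overlap for Atp5b, Atp5c1 or Atp5d, at adjusted p of 0.479, 0.312 and 0.388. Atp5e, the epsilon subunit, overlapped, with 85.6, 104 and 85.3 RPKM in OIR and 99.2, 89.5 and 117 RPKM in Control.

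The genes Atp5g1, Atp5g2 and Atp5g3 encode the same mature c subunit. Atp5g1 averaged 60.9 ± 5.49 RPKM in OIR and 60.3 ± 3.94 RPKM in Control, and Atp5g2 averaged 119 ± 3.35 RPKM in OIR and 116 ± 3.17 RPKM in Control. Atp5g3, the most abundant of them, was at 175, 203 and 193 RPKM in OIR and at 205, 196 and 221 RPKM in Control, with an adjusted p of 0.284. Their median log2 fold change was 0.01 with the values as deposited and -0.03 with median-of-ratios scaling. The 4 stalk subunits had a median of -0.12. In 3 of them, Atp5pb, Atp5h and Atp5j, the OIR values all lay below Control, beside 15.0% of all genes. Atp5h, subunit d, was at 148.9, 161 and 148.7 RPKM in OIR, against 168, 164.5 and 162 RPKM in Control, with an adjusted p of 0.252. Atp5j, coupling factor 6, was at 37.5, 39.8 and 40.0 RPKM in OIR, against 45.8, 40.5 and 41.9 RPKM in Control, with an adjusted p of 0.227. The 5 small membrane subunits had a median of -0.03, and Atp5md, with the lowest estimate of these, was at 123.4, 140 and 118 RPKM in OIR and at 152, 127 and 154 RPKM in Control.

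Summed over the genes that the rule takes, complex IV was the complex whose groups did not overlap with the values as deposited. The sum was 1511, 1610.5 and 1540 RPKM in OIR 1, 2 and 3, against 1692, 1628 and 1781 RPKM in Control 1, 2 and 3, a difference of -8.62% between the OIR and Control means. Cox4i1 and Cox4i2, the genes of subunit IV, are not in this sum. They were at 508 and 49.4 RPKM in OIR 2, against 497 and 36.6 RPKM in Control 2. With them added, OIR 2 lies above Control 2 and the groups overlap. The sums of complex V were 2736, 2985 and 2840 RPKM in OIR and 3010.3, 2925 and 3087 RPKM in Control, a difference of -5.11% with OIR 2 above Control 2. Complex I gave 2696, 2805 and 2732 RPKM in OIR and 2793, 2735 and 2957 RPKM in Control, a difference of -2.98%. Complex III gave 907, 975 and 958 RPKM in OIR and 1014, 942.5 and 1021 RPKM in Control, a difference of -4.62%. Complex II gave 323, 329 and 336 RPKM in OIR and 345, 339 and 325 RPKM in Control, a difference of -2.10%. OIR 1 had the lowest sum in complexes I, II, III, IV and V alike, and outside complex II Control 3 had the highest. With median-of-ratios scaling the sum of complex II also stopped overlapping, with 317, 327 and 328 RPKM in OIR and 342.5, 336 and 342 RPKM in Control. Complex IV took 18.5%, 18.5% and 18.3% of the summed RPKM of all members in OIR, against 19.1%, 19.0% and 19.4% in Control. No test was made of these sums.

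The size of these differences depended on single libraries and on the scaling, while all stayed below 0. In complex I the OIR mean minus the Control mean was -84.2 RPKM with all libraries, -19.8 RPKM without Control 3 and -131 RPKM without Control 2. In complex II it was -7.05 RPKM with all libraries, -2.73 RPKM without Control 1, -3.77 RPKM without OIR 1 and -12.6 RPKM without Control 3. In complex III it was -45.8 RPKM with all libraries, -26.0 RPKM without OIR 1 and -70.8 RPKM without Control 2, and in complex V it was -154 RPKM with all libraries and -94.8 RPKM without OIR 1. In complex IV it was -147 RPKM with all libraries, and leaving out 1 library gave from -183 RPKM without Control 2 to -106 RPKM without Control 3. With median-of-ratios scaling the differences were -5.69%, -4.70%, -7.25%, -11.2% and -7.72% in complexes I to V.

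**Figure D3:**
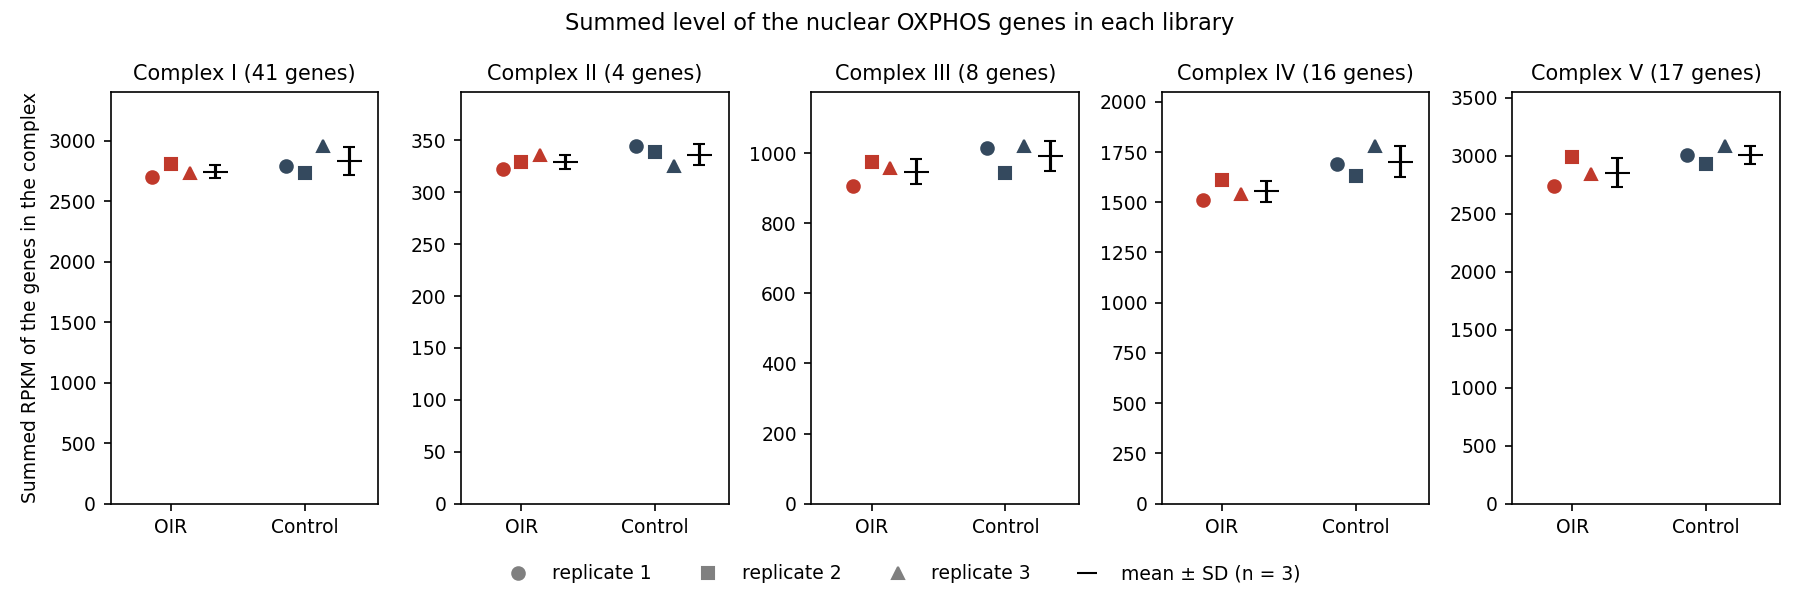
Summed RPKM of the genes of each complex in each library, OIR in red on the left and Control in dark blue on the right, with the mean ± SD (n = 3 each) and axes starting at 0. In complex IV the highest OIR value, 1610.5 RPKM, lies below the lowest Control value, 1628 RPKM, while the groups overlap in the other complexes. Cox4i1 and Cox4i2 are not in the sum of complex IV, and with them added OIR 2 lies above Control 2.

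The members' levels also varied between libraries of the same group. They took 0.845%, 0.894% and 0.869% of all reads in OIR 1, 2 and 3, against 0.917%, 0.894% and 0.923% in Control 1, 2 and 3, so OIR 2 and Control 2 were alike. Of the 82 tested members 39 had their highest value in Control 3, and 35 had their lowest in OIR 1. Control 3 was also the library with 6.9% lens reads, and there the 38 members of up to 700 bases stood a median of 0.125 above their own mean on the log2 scale, beside 0.043 for the 33 members over 1000 bases. Short genes in general stood 0.083 above their mean in Control 3. The median log2 fold change was -0.09 for the short members and -0.07 for the long ones. The part of gene length and of Control 3 in single members was not tested beyond leaving that library out, which left 3 members called lower, Atp5pb, Cox8a and Uqcrfs1, with 50 of 82 estimates below 0.

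**Figure D4:**
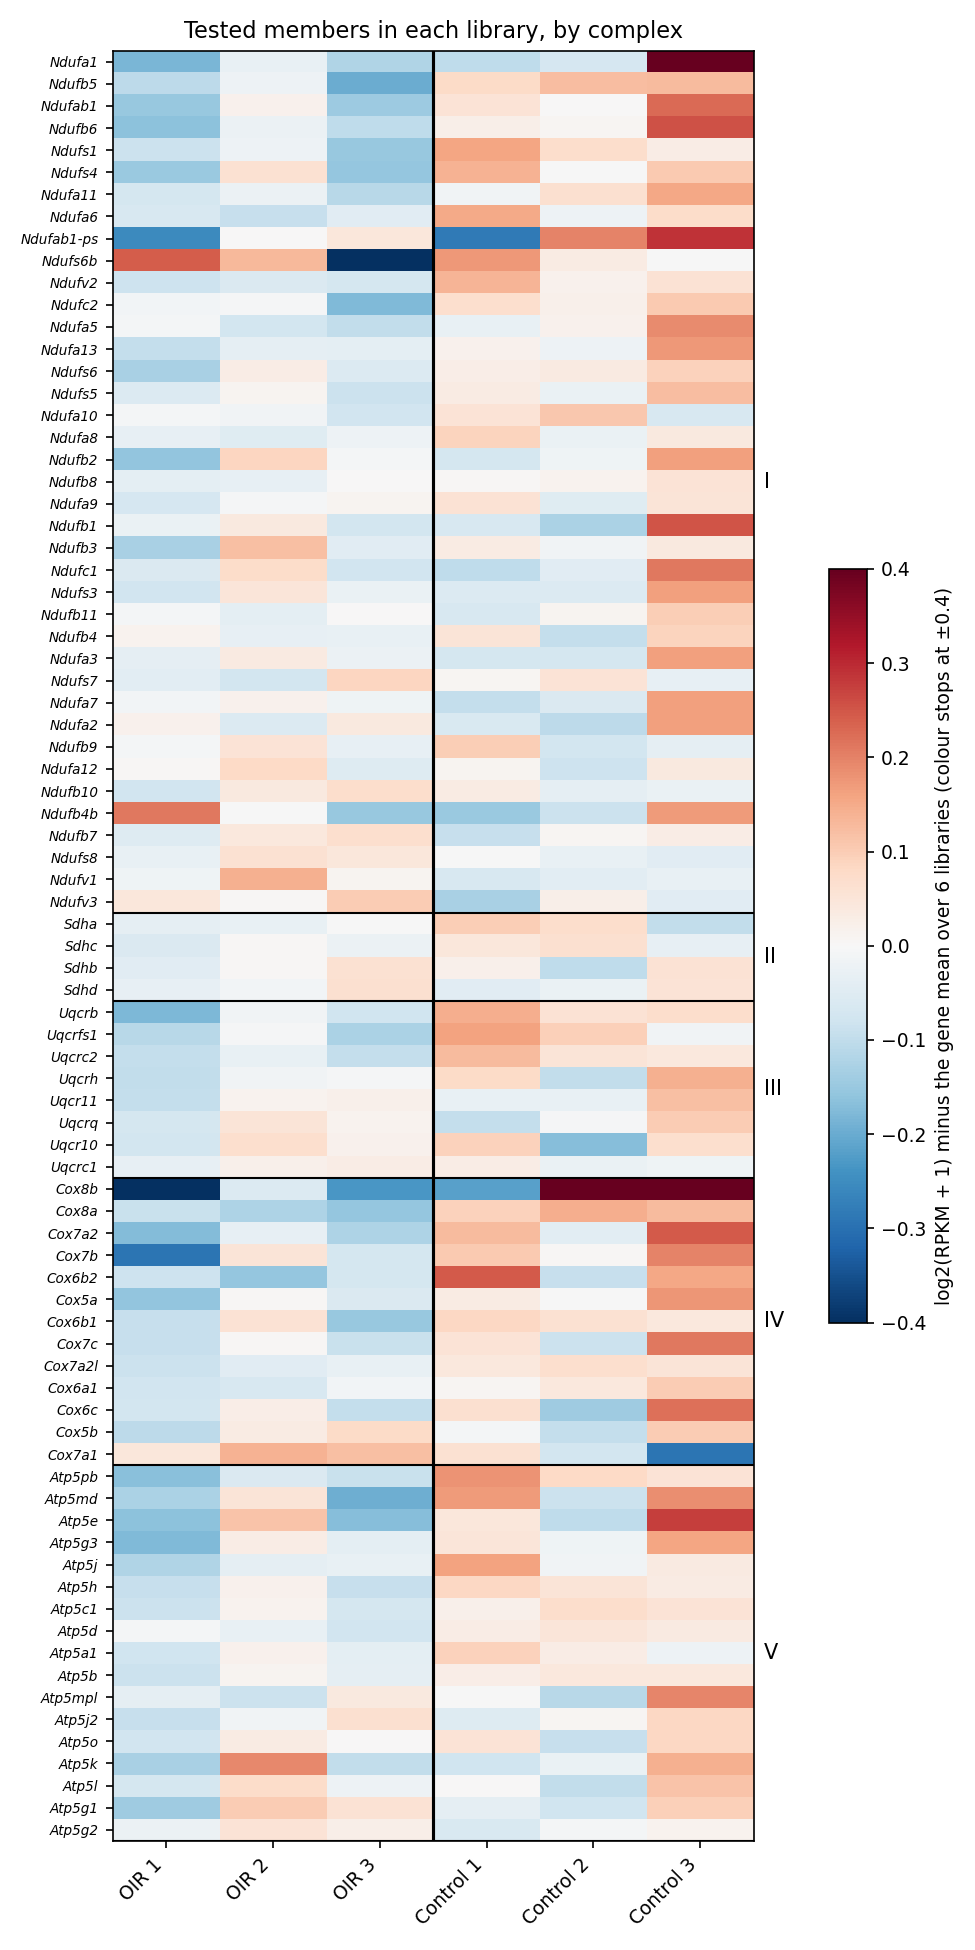
The log2(RPKM + 1) value of the tested members named on the left in each library minus that gene's mean over the 6 libraries, with OIR on the left, Control on the right, complexes from I at the top to V at the bottom, and blue for lower and red for higher. Blue prevails in OIR 1 and red in Control 3, the libraries with the lowest value of 35 and the highest value of 39 of the 82 tested members.

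The 4 subunits left out by the rule include a pair that hypoxia is known to switch on. Ndufa4l2 was at 91.7, 65.1 and 101 RPKM in OIR, against 3.80, 3.82 and 4.41 RPKM in Control, with an adjusted p of 2.18e-05. Cox4i2, the hypoxic form of subunit IV, was at 58.3, 49.4 and 64.4 RPKM in OIR, against 40.9, 36.6 and 35.8 RPKM in Control, with an adjusted p of 0.00397. The common forms did not pass the test. Ndufa4 averaged 297 ± 19.3 RPKM in OIR and 328 ± 20.5 RPKM in Control, and Cox4i1 averaged 492 ± 30.1 RPKM in OIR and 516 ± 23.6 RPKM in Control (SD, n = 3 each). Cox4i1 was the more abundant form of subunit IV in each of the 6 libraries. The subunits encoded by the mitochondrial genome are not analysed here.

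Genes that build or feed the complexes moved in a few places, with 18.8% of all genes called as the background. Of 16 assembly factors of complex I, 1 was lower and 0 higher. It was Tmem126a, needed for the membrane arm, with 11.1, 11.2 and 9.97 RPKM in OIR, against 13.4, 17.5 and 15.9 RPKM in Control, and an adjusted p of 0.00780. Of 6 assembly factors of complex III, Uqcc3 was higher, with 87.8, 79.8 and 93.8 RPKM in OIR, against 74.0, 70.3 and 66.5 RPKM in Control, and an adjusted p of 0.0203. None of the 4 factors of complex II, the 19 of complex IV or the 4 of ATP synthase passed the test, and their median log2 fold changes were -0.06, -0.02 and -0.09. With median-of-ratios scaling 1 factor of complex IV was lower. Cycs, which encodes the electron carrier cytochrome c, was lower, with 10.9, 12.3 and 11.4 RPKM in OIR, against 14.1, 13.03 and 14.7 RPKM in Control, and an adjusted p of 0.0378. Cyc1, the cytochrome of complex III, averaged 73.3 ± 4.24 RPKM in OIR and 70.5 ± 1.06 RPKM in Control and did not pass. Nor did Atpif1, the inhibitor of ATP synthase, with a log2 fold change of -0.24.

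Of 19 enzymes of the tricarboxylic acid cycle and of pyruvate entry, 2 were lower and 0 higher, with a median log2 fold change of -0.11. In 9 of them the OIR values all lay below Control, beside 15.0% of all genes. With median-of-ratios scaling 7 of the 19 were lower, beside 10.8% of all genes, and the median was -0.14. The pair called with the values as deposited were Sucla2, a subunit of succinyl-CoA synthetase, with 25.2, 28.0 and 24.0 RPKM in OIR, against 33.5, 31.1 and 31.9 RPKM in Control, and Pdhx, a structural part of pyruvate dehydrogenase, with 14.9, 15.1 and 14.0 RPKM in OIR, against 18.4, 17.7 and 16.6 RPKM in Control. Of 15 carriers, pores and import proteins, Slc25a4, the ADP/ATP carrier of muscle and brain, was lower, with 356, 389 and 382 RPKM in OIR, against 453, 434 and 429 RPKM in Control, and an adjusted p of 0.0451, and 2 of the 15 were lower with median-of-ratios scaling. Of 17 regulators of mitochondrial biogenesis, Esrrg, the estrogen-related receptor gamma, was lower, with 9.90, 11.5 and 10.1 RPKM in OIR, against 15.4, 15.1 and 12.3 RPKM in Control, and an adjusted p of 0.0157. Of 13 genes of mitophagy and of the hypoxic control of mitochondria, 4 were higher and 2 lower. Among these, Lonp1, a mitochondrial protease, averaged 31.7 ± 2.21 RPKM in OIR and 23.8 ± 0.668 RPKM in Control, and Fundc1, a mitophagy receptor, averaged 9.60 ± 0.934 RPKM in OIR and 12.4 ± 0.921 RPKM in Control. Neither of the 2 tested creatine kinases passed. Of 29 proteins of the small cytosolic ribosomal subunit 0 passed, and their median log2 fold change was 0.13, with 28 estimates above 0. Their summed level was 6625 to 6957 RPKM in OIR, and 5898, 5692 and 6994 RPKM in Control 1, 2 and 3.

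Some markers of retinal cell types differed between the groups in the same libraries, with 7.22% of all genes lower and 11.6% higher as the background. Of the amacrine cell list 8 of 10 were lower in OIR, and its summed level was 476 to 657 RPKM in OIR and 717 to 776 RPKM in Control. Of the ganglion cell list 3 of 9 were lower, with sums of 517 to 777 RPKM in OIR and 821 to 914 RPKM in Control. OIR 2 had the highest sum of the OIR group in both lists, and it also had the highest summed RPKM of the members in that group. In the Control group both lists were highest in Control 1, at 776 and 914 RPKM. The members' sum in that group was highest in Control 3, the library with 6.9% lens reads, at 9172 RPKM. These orders rest on 3 libraries per group and were not tested. Of the bipolar cell list 4 of 10 were lower, and of the Müller glia list 3 of 10 were higher and 5 lower. Of the rod list 3 of 15 were higher, and 2 with median-of-ratios scaling. Its sums were 19791 to 20634 RPKM in OIR and 16659 to 19865 RPKM in Control. Of the cone list 1 of 9 was higher and 1 lower. Of the endothelial list 9 of 10 were higher, of the pericyte list 5 of 8, and of the microglia list 9 of 9. Of the retinal pigment epithelium list 1 of 4 tested was lower, and of the lens list 0 of 16 passed, with sums of 171 to 6186 RPKM in OIR and 205 to 69538 RPKM in Control. The part of any of these cell types in the levels of the members was not tested.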

How the data were processed

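RNA of whole retina was measured in 3 OIR and 3 Control libraries, grouped and numbered by their titles. The deposited files hold 1 RPKM value per gene symbol and library, per the file headers and values, and 22173 genes. The submitters' processing notes name TopHat2 2.0.12 and Bowtie2 2.0.6. The sources used here give no genome build, annotation or counter. The extraction text in the labels describes another species, so library type and strand are uncertain.

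Read numbers were recovered from the RPKM steps. They came out whole, within 0.02 of a read, for 99.994% of the 17953 genes above 0, and GENCODE M21 transcript lengths, through 59 genes, set the absolute depth. They served for depths, counts of reads and 1 alternative.

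Genes reaching 1 RPKM in 3 or more libraries, 12112 in number, entered limma 3.58.1 in R 4.3.3 (trend and robust options) on log2(RPKM + 1), two-sided, with 4 residual degrees of freedom and Benjamini-Hochberg adjustment over all of them at 0.05. Fold changes on this scale understate the change of low genes. Every adjusted p is from limma. Members were read from this fit, and no test was made over members, lists or sums. The members, the gene lists and the alternatives were chosen with earlier results of these data known. Named are the core and isoform genes, per complex the extremes of level and fold change and the 4 smallest adjusted p, and up to 3 called genes of each other list. Ndufs6b, Cox5b, Uqcr10, Uqcr11, Uqcrq, Cyc1 and Atpif1 were added after their values were seen, and a gene that the rule takes is not reported here.

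The 16 alternatives were scaling by median-of-ratios or by upper quartiles, removal of lens reads from the totals, 0.1 as the pseudocount, all 22173 genes or only those reaching 5 RPKM in 3 libraries, a replicate block, leaving out each library, both lens-rich libraries left out, limma-voom on recovered reads, and, added after seeing the data, median-of-ratios scaling without the lens-rich libraries. Calls were also counted with a log2 change of 0.26 or more in either direction as a second condition.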

Additional observations from a re-analysis of the deposited data

How the results depend on the processing

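In 16 alternatives 0 members were called higher, and no called value changed sign. The count of members called lower, 2 with the values as deposited, was 8 with median-of-ratios and with upper-quartile scaling, 7 with lens reads removed, 10 without OIR 2 and Control 3, and 14 with median-of-ratios scaling without these libraries, a setting added after seeing the data. With the 2 scalings this was 9.76% of the members, beside 10.8% and 11.4% of all genes lower. With lens reads removed it was 8.54%, beside 10.6% of all genes. Without OIR 2 and Control 3 it was 12.2% beside 16.0%, and with the added setting 17.1% beside 17.4%. The count was 1 with limma-voom, and 0 without a filter, where 81 genes were higher and 18 lower in all, or with a log2 change of 0.26 or more required. Without a filter 13 members were lower at an unadjusted p under 0.05. Genes lower over all were 1379 with upper-quartile scaling, 1943 without the lens-rich libraries and 2111 with the added setting. In complex I the count lower, 1 as deposited, was 3 with median-of-ratios, with upper-quartile scaling and without the lens-rich libraries, 2 with lens reads removed, 5 with the added setting and 0 with voom, no filter or the fold limit. In complex III it was 3 under each of the 3 scalings, without the lens-rich libraries and with the added setting, against 0 as deposited. In complex IV it was 2 without the lens-rich libraries, 4 with the added setting and 0 with no filter or the fold limit, and in complex V 1 under each of the 3 scalings and 2 without the lens-rich libraries or with the added setting. The median of complex II, -0.02 as deposited, was -0.06 with median-of-ratios and upper-quartile scaling. With these scalings complex I went to -0.08 and -0.09, complex III to -0.10 and -0.11, complex IV to -0.16 and -0.17, complex V to -0.11 and -0.12, and all members to -0.11. Leaving out 1 library, the median of all members ran from -0.09 without OIR 2 to -0.04 without Control 3, complex I from -0.07 to -0.03, complex III from -0.11 without Control 2 to -0.01 without Control 3, complex IV from -0.19 without Control 2 to -0.10 without OIR 1, and complex V from -0.10 to -0.05. Without both lens-rich libraries complex III was at -0.02. Leaving out 1 library gave 0 to 6 members lower, 0 to 2 in complex I, 0 to 1 in complex III, 0 to 3 in complex IV and 0 to 1 in complex V, with 212 to 1293 genes lower and 513 to 1754 higher in all; 0 members were called without OIR 1 or without OIR 3 and 6 without OIR 2. The cause of these shifts was not tested. In all, 17 members were called in some setting and 65 in none, and 31 members that were not called changed sign in some setting. The share of all genes called in some setting is not given here. The highest share called in a single setting was 17.1% of the members and 33.5% of all genes, both in the added setting.

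The titles number the replicates but state no pairing, and the main fit used none. Same-numbered libraries deviated from their group means with correlations of 0.222, -0.44 and -0.414. The highest correlation, 0.493, was between the lens-rich libraries OIR 2 and Control 3. These values cannot decide whether samples were paired, since the deviations within a group cancel out and follow lens content too. With the replicate block 1 member was lower, Cox8b, and 0 in complex I, with 1222 genes higher and 809 lower. Cox8a and Ndufb5 had adjusted p of 0.0509 and 0.0600 there, and Atp5pb 0.0884. Depth limits the low members, with 9 reads behind the lowest tested value.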
